A study of Mus musculus with 12 samples.

Results

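Club and secretory airway cell genes are described here by 9 genes, Scgb1a1, Scgb3a1, Scgb3a2, Cyp2f2, Aldh1a7, Muc5b, Muc5ac, Bpifa1 and Reg3g, out of 22180 named genes on the arrays. Each was taken by its symbol in the platform's gene table, and all 9 were found. Only Cyp2f2 had more than 1 transcript, and of its 2 the one of higher mean level was used. Newborn mice were studied, and RNA from 1 lobe of the right lung (the superior) was measured on 12 whole-transcript arrays, 1 for each mouse, with 3 mice in each of 4 groups. WT RA and SK RA are wild type (WT) and Sphk1-/- (SK) pups in room air, and WT HO and SK HO are wild type and Sphk1-/- pups kept in 75% oxygen for 7 days from postnatal day 1, in litters of at most 6. The Sphk1-/- line is a germline knockout of sphingosine kinase 1, it had been backcrossed to C57BL/6 for 2 generations, and the wild type controls share that mixed background. Values are log2 expression levels, and a log2 difference of 1 is a doubling of signal.

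Club cells are the secretory cells of the conducting airways. They line the bronchioles, release secretoglobins and antimicrobial proteins into the airway fluid, carry cytochrome P450 enzymes that act on inhaled chemicals, and serve as progenitors for airway epithelium after injury. Goblet cells and submucosal glands, which sit in larger airways and are sparse in the healthy mouse lung, make the gel-forming mucins. The lobe was processed whole, so for all genes below fewer cells of a type and less RNA per cell cannot be told apart.

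Several facts about the arrays bear on every comparison. The methods name male pups, yet the Y-linked genes Eif2s3y, Kdm5d and Uty were high, and Xist low, on only 4 arrays, which were 1 of WT RA (replicate 3), 1 of SK RA (replicate 1) and 2 of SK HO (replicates 1 and 2), and the other 8 showed the opposite. The oxygen difference of the 3 genes called below was of the same sign and similar size within the WT arrays of low Y-linked signal (3 WT HO against 2 WT RA), at 3.27 for Bpifa1, 0.65 for Cyp2f2 and 0.72 for Aldh1a7. With WT RA 3 left out, limma did not call Cyp2f2 (adjusted p 0.0714) or Aldh1a7 (0.119). Within SK arrays of low and of high Y-linked signal, Bpifa1 differed by -1.08 and -1.04 (-0.48 over all SK arrays). Aldh1a7 differed by 0.21 and 0.66 (0.24 over all), with a single array in 1 of the groups each time. The targeted gene read 5.37, 4.90 and 5.40 in WT RA, 6.79, 7.50 and 7.04 in WT HO, 5.59, 5.78 and 5.84 in SK RA, and 5.70, 6.28 and 5.57 in SK HO. Sphk1 signal was thus below WT HO on the SK HO arrays, but it was not below WT RA on the SK RA arrays. The sources used here do not say whether the probes lie in the deleted part, so these values do not check the genotype labels, and SK throughout means the arrays labelled as Sphk1 knockout. Array SK RA 1 stood apart, with the highest median (4.99, against 4.76 to 4.89 on the others) and the highest scores of adipocyte genes (1.76) and cardiac muscle genes (1.11), a score being the mean log2 deviation of the list's genes from their means over the 12 arrays. Ucp1, the uncoupling protein of brown fat, read 9.74 there and 3.69 to 6.53 on the others. WT HO 2 had the next highest adipocyte score (1.23), and SK HO 2 had the highest score of neutrophil genes (1.41).

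The 9 genes spanned nearly the whole range of the arrays. Scgb1a1, the defining club cell secretoglobin, lay between 12.50 and 13.02 and ranked from 19th to 47th among 41345 transcripts, on arrays whose highest values were 13.70 to 13.82. It was followed by Cyp2f2 (9.77 to 11.33), Scgb3a2 (8.39 to 9.02) and Aldh1a7 (7.58 to 8.95), each of which kept within 1.6 log2 units over the 12 arrays. Scgb3a1 (6.69 to 9.99), Muc5b (4.76 to 8.89), Bpifa1 (3.14 to 8.41) and Reg3g (4.26 to 9.30) varied over more than 3.3 log2 units. As a yardstick for background, 1405 transcripts of olfactory and vomeronasal receptors were used, genes of sensory neurons that lung does not need. Muc5ac (4.05 to 5.66) lay below their 95th percentile on 7 arrays, Bpifa1 on 6, Reg3g on 2, and the other 6 genes on no array. These levels differ between probes as well as between genes, so their order is a description only. The club cell markers Scgb1a1, Cyp2f2 and Scgb3a2 were thus well above the yardstick on all arrays, and the goblet cell mucin Muc5ac was at it on most.

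**Figure D1:**
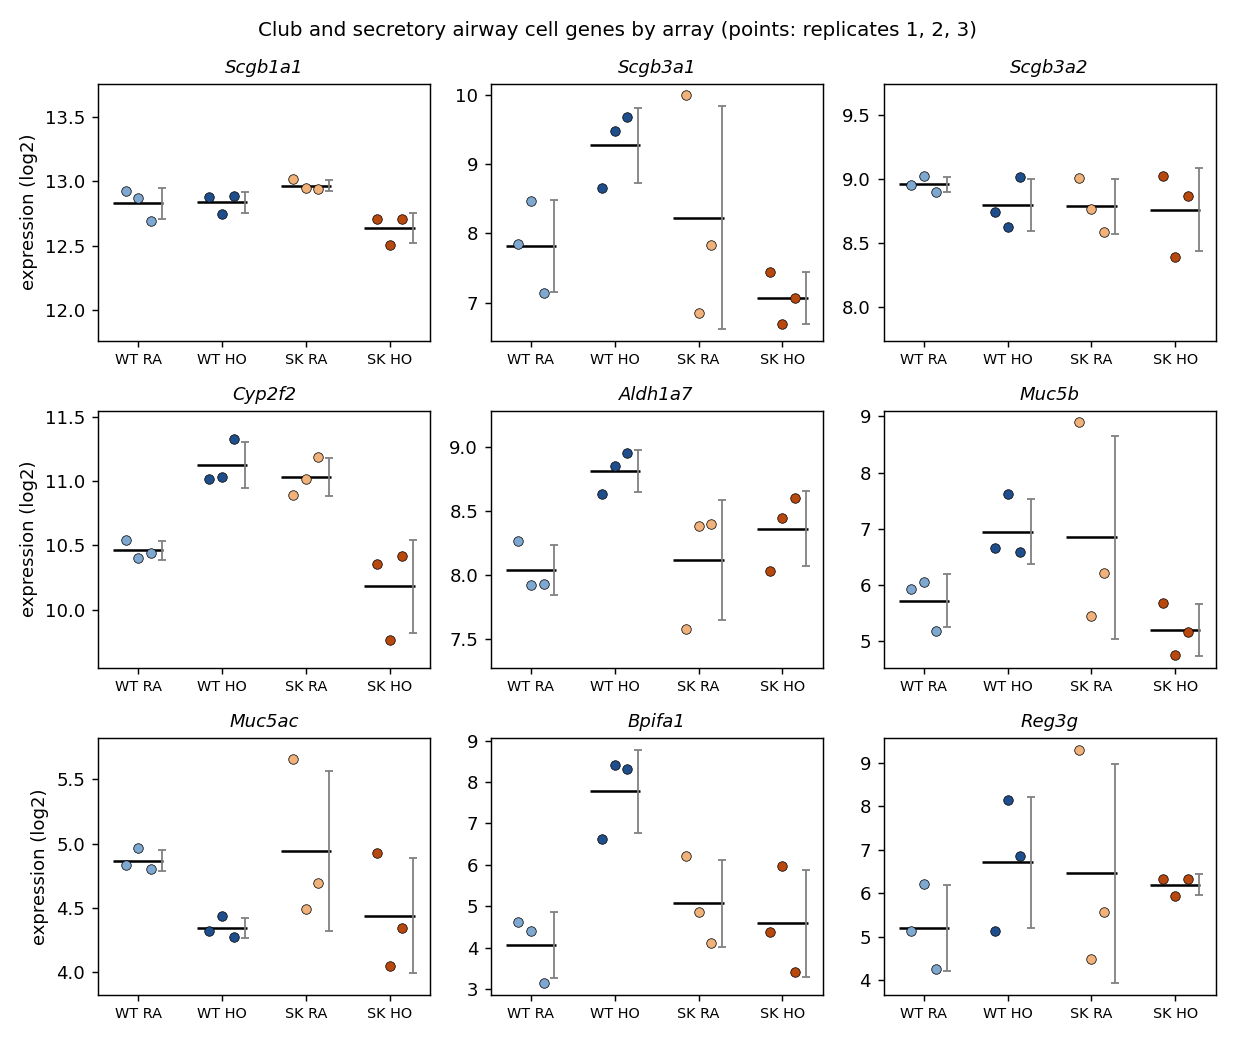
Expression (log2, vertical axes of different ranges) of the 9 genes on each of the 12 arrays, with 1 point for each mouse, a black line at the group mean and a grey bar of 1 SD on each side of it. Bpifa1 stood at 6.63 to 8.41 in WT HO and at 3.14 to 6.21 elsewhere, and Cyp2f2 was high in WT HO and SK RA and low in WT RA and SK HO.

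Promoter sequences are printed for genes that moved with oxygen in wild type pups, so that their starts can be set side by side. RefSeq's promoter table (GRCm38.p6) holds 5 of the 9 genes, and the 3 printed, Cyp2f2, Aldh1a7 and Bpifa1, are those that passed the test in wild type pups. Each runs 5′ to 3′ on the gene's strand from 250 bases before to 50 bases after the start. Capitals mark matches on either strand to 5 motifs. The core of Nkx2-1 sites was searched as TCAAG. Sites of the FOXA factors were searched as TNTTTAC, and those of C/EBP factors as TTGCNNAA. The TATA box was searched as TATAAA, and the antioxidant response element as TGACNNNGC.
Cyp2f2, chr7:27119705-27120004, plus strand: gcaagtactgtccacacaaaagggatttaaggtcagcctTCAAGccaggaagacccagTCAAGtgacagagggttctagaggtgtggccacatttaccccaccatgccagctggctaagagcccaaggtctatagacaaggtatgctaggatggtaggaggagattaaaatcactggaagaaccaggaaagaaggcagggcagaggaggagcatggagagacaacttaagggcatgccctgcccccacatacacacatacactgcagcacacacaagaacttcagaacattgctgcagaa
Aldh1a7, chr19:20727507-20727806, minus strand: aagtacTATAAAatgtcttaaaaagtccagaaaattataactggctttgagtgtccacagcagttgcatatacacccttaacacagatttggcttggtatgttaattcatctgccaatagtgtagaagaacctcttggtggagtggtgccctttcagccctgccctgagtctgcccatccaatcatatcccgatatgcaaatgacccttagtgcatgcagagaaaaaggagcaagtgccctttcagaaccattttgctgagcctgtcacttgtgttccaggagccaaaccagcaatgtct
Bpifa1, chr2:154142630-154142929, plus strand: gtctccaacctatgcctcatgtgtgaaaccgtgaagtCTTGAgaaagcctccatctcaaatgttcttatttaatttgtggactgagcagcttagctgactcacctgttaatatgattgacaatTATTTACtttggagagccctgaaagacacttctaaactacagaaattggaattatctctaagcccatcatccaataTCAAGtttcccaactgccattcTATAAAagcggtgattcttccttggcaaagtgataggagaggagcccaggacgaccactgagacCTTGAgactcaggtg

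The Bpifa1 window held TCAAG on either strand 3 times, TNTTTAC once and a TATA box beginning at position -29 from the start. Cyp2f2 held TCAAG at 2 places, and Aldh1a7 held a single TATAAA, at position -244. Of all 32851 promoters in the table, 40.7% hold TCAAG, 12.4% TNTTTAC, 10.8% TTGCNNAA, 13.6% TATAAA and 12.4% TGACNNNGC, so a match to any of these is common. No motif was shared by all 3 windows, and none of them held TTGCNNAA or TGACNNNGC, which says only that these letters are not in these 300 bases.

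The first question was how the genes responded to oxygen in wild type lung. In WT HO against WT RA, 3 of the 9 rose (limma, adjusted p under 0.05 over all transcripts), where 8.58% of 41345 transcripts rose and 6.35% fell. The genes that rose were Bpifa1, Aldh1a7 and Cyp2f2, an airway antimicrobial protein and a pair of enzymes, and the secretoglobins and mucins did not pass the test. The median log2 difference of the 9 was 0.77, against 0.01 over all transcripts, and 4 of them had an unadjusted p under 0.05. The share of all transcripts with such a p was not counted, so counts at an unadjusted p, here and below, have no comparison.

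Bpifa1, also known as SPLUNC1, is a secreted protein of the airway surface that binds bacterial lipids and regulates sodium absorption. It read 4.61, 4.41 and 3.14 in WT RA and 6.63, 8.41 and 8.31 in WT HO, so that the lowest oxygen array was above the highest room air array. All 3 WT RA arrays were below the receptor yardstick, so the measured difference of 3.73 ± 0.73 (SE) on the log2 scale (adjusted p 0.00507) was taken against a group with no level above background. With each WT RA array set to its own receptor 95th percentile, the mean of Bpifa1 was 7.85-fold higher in WT HO. That figure makes no allowance for the spread between mice, and the 95% confidence interval of the measured log2 difference began at 2.13. The Bpifa1 call stayed below the threshold on leaving out any one of the 12 arrays (adjusted p 0.00258 to 0.0256).

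Cyp2f2 is the cytochrome P450 that makes mouse club cells sensitive to naphthalene, since it turns that compound into a toxic epoxide. Its levels were 10.54, 10.40 and 10.44 in WT RA and 11.02, 11.03 and 11.33 in WT HO. These groups did not overlap, and the difference was 0.66 ± 0.18 (SE), 1.59-fold, with an adjusted p of 0.0273. Leaving out any one of the 6 arrays compared took it past the threshold (adjusted p 0.0505 to 0.102), as did a further quantile normalization (0.0666). The mean of both Cyp2f2 transcripts did not pass either (0.143). The second Cyp2f2 transcript, at 5.95 to 7.27, differed by 0.24 with an adjusted p of 0.629.

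Aldh1a7, a mouse aldehyde dehydrogenase closely related to the retinaldehyde dehydrogenase Aldh1a1, read 8.26, 7.92 and 7.93 in WT RA and 8.63, 8.85 and 8.95 in WT HO. All 3 oxygen arrays lay above the room air arrays, by 0.77 ± 0.23 (SE) on average, 1.71-fold, with an adjusted p of 0.0448. The call was lost without any one of those 6 arrays, SK HO 2 or SK HO 3 (adjusted p 0.0506 to 0.134), with ordinary in place of moderated variances (0.0839) and with arrays centred on their medians (0.0747). Aldh1a1 itself rose by 1.72 in the same comparison, and whether Aldh1a7 probes also read Aldh1a1 RNA was not tested.

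The remaining genes did not pass in wild type pups. Scgb1a1 was level, at 12.92, 12.87 and 12.70 in WT RA and 12.88, 12.74 and 12.89 in WT HO, a difference of 0.01 with a 95% confidence interval of -0.25 to 0.27. Scgb3a2, a secretoglobin expressed earlier in development than Scgb1a1, was likewise close in WT RA (8.95, 9.02 and 8.90) and WT HO (8.74, 8.63 and 9.02), and its interval ran from -0.56 to 0.24. Both intervals leave out changes of the size seen in Bpifa1, Aldh1a7 and Cyp2f2.

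Scgb3a1, a secretoglobin of larger airways, read 7.84, 8.46 and 7.14 in WT RA and 8.66, 9.47 and 9.69 in WT HO. The groups did not overlap, but with a difference of 1.46 ± 0.65 (SE) the adjusted p was 0.176. Muc5b, the main gel-forming mucin of mouse airways, showed the same order, with 5.92, 6.05 and 5.18 in WT RA and 6.67, 7.61 and 6.58 in WT HO (difference 1.23 ± 0.70, SE, adjusted p 0.297). The shared spread in that fit included SK RA 1, on which both genes were far above the other SK RA arrays. Without SK RA 1 both differences passed, with adjusted p of 0.0292 for Scgb3a1 and 0.0399 for Muc5b.

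Muc5ac, the inducible mucin of goblet cells, was the only one of the 9 whose oxygen arrays all lay lower, at 4.32, 4.43 and 4.27 in WT HO against 4.83, 4.96 and 4.80 in WT RA. The difference of -0.53 ± 0.29 (SE) did not pass (adjusted p 0.277). All WT HO values and that of WT RA 1 were below the receptor yardstick. WT RA 2 and WT RA 3 were just above it (4.83 and 4.70 on those arrays). The difference did not pass without SK RA 1 either, but with only the WT arrays fitted it did (adjusted p 0.0253). In that fit Scgb3a1 also passed (adjusted p 0.0442) and Muc5b did not. Reg3g, a lectin that kills Gram-positive bacteria, overlapped between WT RA (5.13, 6.22 and 4.26) and WT HO (5.14, 8.13 and 6.86). Its interval of -0.85 to 3.87 allows a large rise or none.

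The same contrast was then taken in Sphk1-/- pups. Of the 9, 1 fell and none rose (SK HO against SK RA), where 1.32% of transcripts fell and 1.02% rose. That gene was Cyp2f2, which had risen in wild type lung. The median log2 difference of the 9 was -0.48, against 0.00 over all transcripts, and 3 of them had an unadjusted p under 0.05.

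Cyp2f2 read 10.89, 11.01 and 11.18 in SK RA and 10.36, 9.77 and 10.42 in SK HO. The groups were apart and it fell by 0.85 ± 0.18 (SE), 1.8-fold, with an adjusted p of 0.0325. The call was close to the threshold, since it was lost without SK RA 2, SK RA 3, WT HO 2, SK HO 2 or any one WT RA array (adjusted p 0.0518 to 0.122), and with Y-linked signal as a covariate (0.066). The same happened with ordinary variances, median centring, the mean of both transcripts or only the SK arrays fitted (adjusted p 0.0594 to 0.205). Within arrays of low Y-linked signal the difference was -0.68 (1 SK HO array against 2 SK RA arrays), and within those of high signal -0.83 (2 against 1).

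Bpifa1 overlapped between SK RA (6.21, 4.87 and 4.12) and SK HO (4.37, 5.97 and 3.41), with an interval of -2.09 to 1.12. Aldh1a7 read 7.58, 8.38 and 8.40 in SK RA and 8.03, 8.45 and 8.60 in SK HO, and its interval ran from -0.27 to 0.75. For Scgb1a1 the SK HO arrays (12.71, 12.50 and 12.71) were all below the SK RA arrays (13.02, 12.94 and 12.94), but the difference of -0.33 had an adjusted p of 0.211. Scgb1a1 was near the upper end of the arrays' scale, and whether its differences are compressed there was not tested.

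The genes that vary most in SK lung did so through 1 array. Muc5b read 8.89 in SK RA 1 and 5.46 and 6.21 in the other SK RA arrays, against 5.69, 4.76 and 5.16 in SK HO. Scgb3a1 had the same shape, with 9.99 in SK RA 1 against 6.86 and 7.84, and with 7.45, 6.69 and 7.07 in SK HO. Reg3g was at 9.30 in SK RA 1 and at 4.49 and 5.57 in the others, and at 6.34, 5.93 and 6.33 in SK HO. Muc5ac read 5.66, 4.49 and 4.69 in SK RA and 4.93, 4.05 and 4.34 in SK HO, and Scgb3a2 9.01, 8.77 and 8.58 against 9.02, 8.39 and 8.87. None of these 5 genes passed in SK HO against SK RA (adjusted p 0.307 to 0.975).

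**Figure D2:**
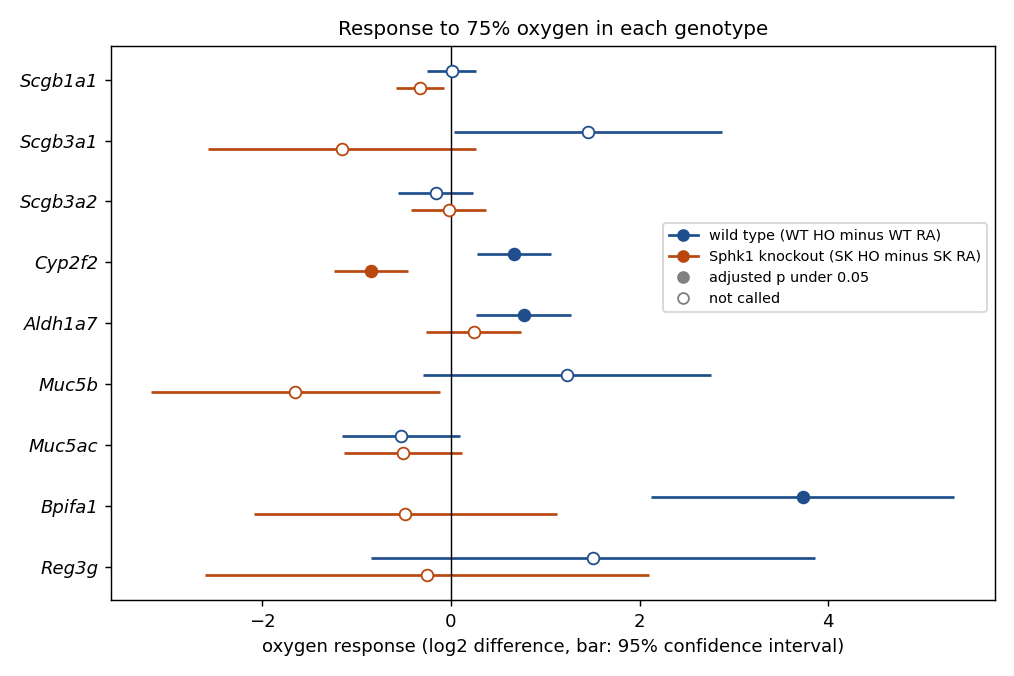
Oxygen response (log2 difference, horizontal axis) of each gene in wild type and in Sphk1-/- pups, from the fit over all 12 arrays, where bars are 95% confidence intervals and filled points have an adjusted p under 0.05. Bpifa1 and Cyp2f2 have intervals of the 2 genotypes that do not meet, whereas those of Muc5ac, at -0.53 and -0.51, nearly coincide.

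Whether the oxygen response differed between genotypes was tested directly, as SK response minus WT response. The test was passed by 2 of the 9 genes, both with a negative difference, where 2.6% of transcripts passed in that direction and 2.19% in the other. Cyp2f2 had a difference of -1.52 ± 0.25 (SE, adjusted p 0.00541), since it rose in WT and fell in SK, and the test was passed without any one array (adjusted p 0.00357 to 0.0186). Bpifa1 had a difference of -4.21 ± 1.03 (SE, adjusted p 0.0412), a call lost without any one of 9 arrays, all but SK RA 3, WT HO 1 and SK HO 2 (adjusted p 0.0618 to 0.101), and with ordinary variances (0.114). It rests in part on values below the yardstick, those of all WT RA arrays, 1 SK RA array and 2 SK HO arrays. The other Cyp2f2 transcript ran the same way, by -0.86, without passing (adjusted p 0.253).

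Scgb3a1 (-2.61, adjusted p 0.155) and Muc5b (-2.88, adjusted p 0.144) had larger negative estimates than Cyp2f2 but a wider spread. Without SK RA 2 the Scgb3a1 value was -3.30 with an adjusted p of 0.0494. That fit leaves out the lowest SK RA value of Scgb3a1 (6.86), so SK RA 1 (9.99) carries more of the SK RA mean. Without SK RA 1 neither Scgb3a1 nor Muc5b passed. Scgb3a2 (0.14), Muc5ac (0.02) and Scgb1a1 (-0.34) had the smallest estimates, and their intervals ran from -0.43 to 0.70, from -0.87 to 0.90 and from -0.70 to 0.03. For Aldh1a7, which was called in WT HO and not in SK HO, the difference between genotypes was -0.53 with an adjusted p of 0.464, so a different response was not shown.

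The genotypes were next compared at a given oxygen level. In room air (SK RA against WT RA) none of the 9 passed limma's test, where 1.15% of transcripts did, and 1 had an unadjusted p under 0.05. That gene was Cyp2f2, whose SK RA arrays all lay above the WT RA arrays, by 0.57 (adjusted p 0.189). The next farthest apart in relation to its error, Muc5b, differed by 1.13 with an interval of -0.40 to 2.66, and here too its SK RA mean rests on SK RA 1.

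In oxygen (SK HO against WT HO) 2 of the 9 were lower and none higher, where 2.92% of transcripts were lower and 2.82% higher. Cyp2f2 was 0.95 lower on the log2 scale in SK HO, with a difference of -0.95 ± 0.18 (SE), 1.93-fold and an adjusted p of 0.00979, and it stayed below the threshold without any one array (adjusted p 0.0111 to 0.0463) but not with only the WT HO and SK HO arrays fitted (0.0693). Bpifa1 had a difference of -3.20 ± 0.73 (SE) with an adjusted p of 0.0263, and no SK HO array reached the lowest WT HO array. Only 1 of the 3 SK HO arrays was above the receptor yardstick for Bpifa1, so no fold is given. That call was lost without WT HO 2, WT HO 3, SK HO 1 or SK HO 3 (adjusted p 0.0912 to 0.105), with ordinary variances (0.0827) and with only these groups fitted (0.0693). Scgb3a1 was also lower on all SK HO arrays (difference -2.20, adjusted p 0.0761) and passed without SK RA 1 (0.00852) or SK RA 2 (0.0397), and Muc5b (-1.75, adjusted p 0.202) passed without SK RA 1 (0.0162). With only these groups fitted, Scgb3a1 (0.0167) and Muc5b (0.0451) were the genes called.

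Averaged over genotypes, oxygen called none of the 9 (limma, 13.6% of all transcripts called), although 3 had an unadjusted p under 0.05. These were Bpifa1 (1.62, adjusted p 0.0621), Aldh1a7 (0.51, adjusted p 0.0652) and Muc5ac (-0.52, adjusted p 0.132). Cyp2f2, whose responses had opposite signs, averaged to -0.09. Knockout averaged over oxygen levels called none either, where 1.16% of transcripts were called, and none had an unadjusted p under 0.05. With the ordinary residual variance in place of limma's, both counts were 0 as well.

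Correlations between the 9 genes from mouse to mouse ran from -0.85 to 0.91. Over the 12 arrays, Scgb3a1 and Muc5b had a Pearson correlation of 0.91, and 0.92 after the group means were removed, as a description over arrays that include SK RA 1. Within groups, Reg3g went with both (0.94 with Scgb3a1 and 0.92 with Muc5b). Aldh1a7 and Muc5ac ran opposite, at -0.85 both over all arrays and within groups. Muc5ac was below the receptor yardstick on 7 of the 12 arrays, and whether its values follow the background of each array was not tested. SK RA 1 held the highest value of its group for 7 of the 9 genes and the lowest for the other 2, Cyp2f2 and Aldh1a7, while WT RA 3 and SK HO 2 each held the lowest value for 7.

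Among all named genes, the one most like Cyp2f2 was Cbr2, the carbonyl reductase of mouse club cells, with a correlation of 0.97 over the 12 arrays. Cbr2 read 10.83, 10.87 and 10.88 in WT RA, 11.19, 11.16 and 11.48 in WT HO, 10.99, 11.16 and 11.24 in SK RA, and 10.79, 10.34 and 10.94 in SK HO. It was high and low on the same groups as Cyp2f2, without passing any of the oxygen tests (adjusted p 0.125 in WT, 0.23 in SK and 0.0631 for the difference between genotypes). The one most like Muc5b was Tff2, a trefoil peptide secreted with mucins, at 0.93. Such matches are the best of 22179 other genes over 12 arrays, and they describe these arrays only.

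**Figure D3:**
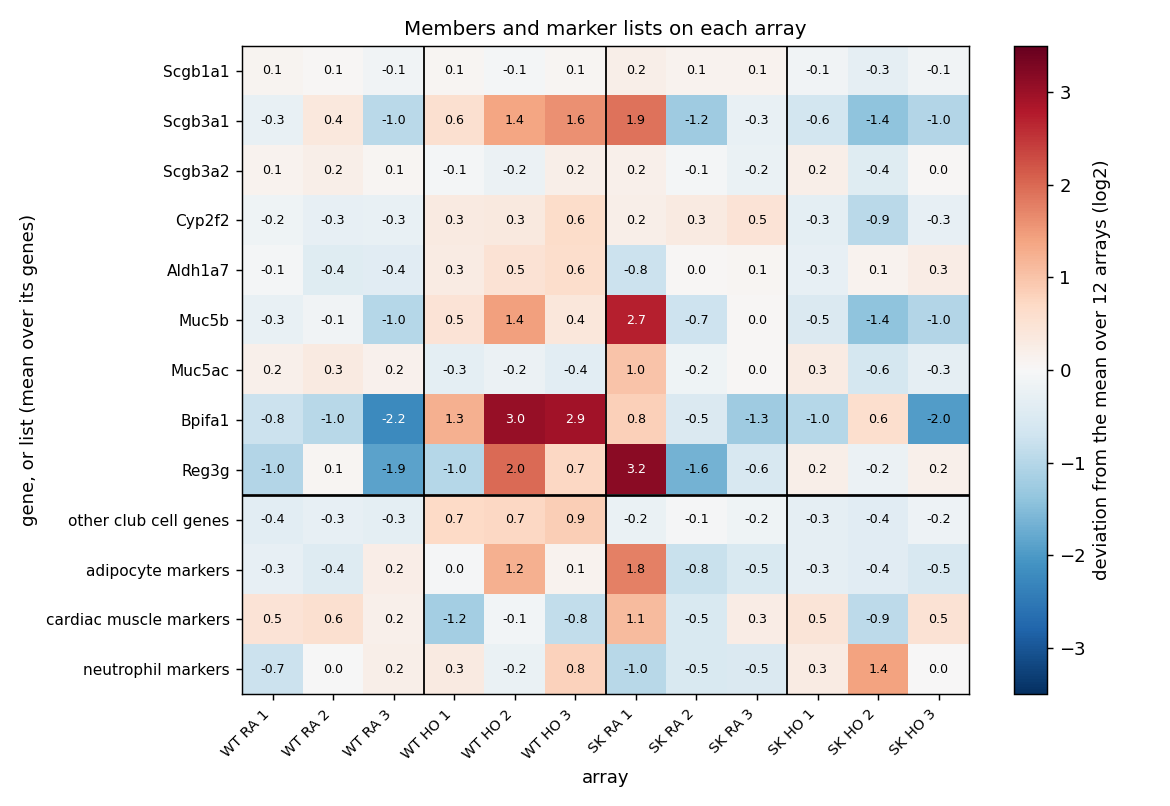
Deviation of each gene, and of the mean of each marker list, from its mean over the 12 arrays (log2, colour and printed value), with arrays as columns grouped by WT RA, WT HO, SK RA and SK HO. SK RA 1 was the array farthest above the mean in Reg3g, Muc5b, Scgb3a1 and Muc5ac, and also in the adipocyte and cardiac muscle lists. The mean over the other club cell genes was raised on all 3 WT HO arrays.

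A list of other club cell genes, 20 of 22 of which were measured, shows the same comparisons in genes outside the 9. In WT HO against WT RA, 11 of them rose, 1 fell and 8 did not pass, with a median log2 difference of 0.91. With oxygen in SK pups none rose and 3 fell, with a median of 0.05, and for the difference between genotypes 10 were called, all with a negative difference (median of the 20 genes -1.10). This list was drawn up with earlier results of these data known. Of all transcripts, 8.58% rose and 6.35% fell in WT HO, and 1.02% rose and 1.32% fell in SK HO. For the difference between genotypes, 2.6% were called with a negative value. These shares also stand beside the counts of the lists below.

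Cyp2b10, a cytochrome P450 inducible by xenobiotics, read 6.74, 6.56 and 6.97 in WT RA, 10.35, 10.41 and 10.36 in WT HO, 7.47, 7.34 and 7.31 in SK RA, and 7.39, 7.83 and 7.26 in SK HO. It rose by 3.62 ± 0.16 (SE, adjusted p 8.79e-07) in wild type lung, and its SK HO arrays overlapped the SK RA arrays. Cyp4b1, a fatty acid and xenobiotic hydroxylase, rose by 2.85 in wild type pups and differed by 0.25 in SK pups. Gsta3, a glutathione transferase, rose by 2.39 against 0.12, and Aldh1a1 by 1.72 against 0.08. The difference between genotypes passed for all 4, with adjusted p of at most 0.000154. Upk3a, a uroplakin of a club cell subset, was the gene of the list that fell in WT HO, by 0.94.

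The genes of the list that fell in SK HO were Chad, the matrix protein chondroadherin, by 1.98 (adjusted p 0.00243), the secretoglobin Scgb1c1 by 1.18 (0.0341) and Lypd2 by 0.83 (0.0435). Scgb1c1 had risen by 1.55 in wild type lung. In room air only Cyp4b1 (0.88) and Aldh1a1 (0.66) of the 20 were called, both higher in SK RA than in WT RA.

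**Figure D4:**
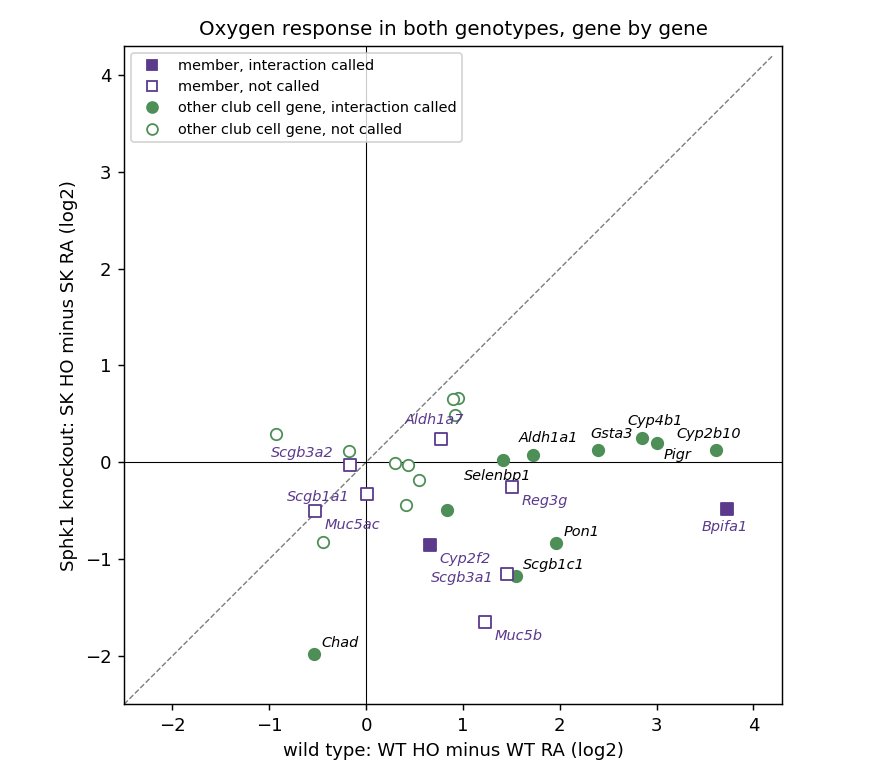
Oxygen response in Sphk1-/- pups (vertical axis, log2) against that in wild type pups (horizontal axis, log2) for the 9 genes (squares) and 20 other club cell genes (circles), filled where the difference between genotypes had an adjusted p under 0.05, with a dashed line of equal response. The 2 filled squares, Bpifa1 and Cyp2f2, and the 10 filled circles lie below the line.

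The families of the 9 genes, counted with the 9 included, were counted in the same way. Of 11 secretoglobins measured, Scgb1c1 alone passed in either genotype. In families of this size, a count of 0 or 1 in WT HO is near the share over all transcripts (8.58% rose and 6.35% fell). Of 13 proteins of the BPI fold family, Bpifa1 and Bpifa2 rose in WT HO and Bpifb5 fell by 1.72. Bpifa2, a salivary relative of Bpifa1, read 3.36, 3.81 and 3.78 in WT RA and 4.89, 4.68 and 4.92 in WT HO. Its WT RA values were below the receptor yardstick, and its WT HO values were just above it (4.71, 4.57 and 4.66 on those arrays). None of the 13 passed in SK HO against SK RA. None of the 7 Reg genes passed in either genotype. Of 11 mucins only the membrane mucin Muc1 passed, and it fell by 0.99 in WT HO and was 1.21 higher in SK HO than in WT HO (adjusted p 0.00378). In the Aldh1a family Aldh1a1, Aldh1a3 and Aldh1a7 rose in WT HO and Aldh1a3 also in SK HO, by 1.08.

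Partners of Cyp2f2 and Aldh1a7 in xenobiotic metabolism overlap the club cell list in Cyp2b10, Cyp4b1, Gsta3 and others. Of 17 measured, 11 rose in WT HO and none fell, among them Ephx1, the epoxide hydrolase, by 1.89. Against SK RA, 1 rose in SK HO (Ephx1, by 0.72) and 2 fell, the flavin monooxygenases Fmo1 by 1.86 and Fmo2 by 1.38. Fmo2 read 10.84, 10.76 and 10.69 in WT HO and 10.75, 10.73 and 10.85 in SK RA, against 9.04, 8.94 and 9.48 in WT RA and 9.42, 9.90 and 8.87 in SK HO. Like Cyp2f2, it was high in WT HO and SK RA and lower in WT RA and SK HO.

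Of 16 goblet and gland genes measured, 1 rose and 1 fell in WT HO, where 8.58% of all transcripts rose and 6.35% fell. In SK HO 1 rose, where 1.02% of all transcripts did. Lcn2, an iron-binding antimicrobial protein, rose in both genotypes, by 1.21 and 1.27. On SK RA 1 the goblet genes Clca1 and Agr2 read 8.62 and 6.25, above the other 11 arrays (4.43 to 7.12 and 3.79 to 4.60), and Tff2 read 7.55 there against 4.95 to 6.26. The part of adipocyte, cardiac muscle and goblet gene RNA on this array in the values of Muc5b, Scgb3a1 and Reg3g was not tested. Without SK RA 1 and WT HO 2, the arrays with the highest adipocyte scores, Bpifa1 and Aldh1a7 passed in WT HO against WT RA, and Cyp2f2 did not (adjusted p 0.0564).

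Markers of some other epithelial cells also rose in WT HO. Of 12 ciliated cell genes, 5 rose in WT HO, among them Sntn by 1.73, Foxj1, the regulator of cilia, by 1.29, and Rsph1 by 0.86. Against SK RA, 2 rose in SK HO, Foxj1 by 0.88 and Sntn by 0.78. The ciliated score was 0.45 to 0.56 in WT HO, -0.22 to -0.14 in WT RA, -0.40 to -0.26 in SK RA and -0.23 to 0.18 in SK HO. Of 7 general epithelial markers, 5 rose in WT HO and 4 in SK HO, Krt7 by 0.91 and 1.16. The part of such shifts in the values of Bpifa1 and Cyp2f2 was not tested.

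Most alveolar type 2 genes ran against them in wild type pups, where 6 of 9 fell. Sftpc, a surfactant protein gene, fell by 0.63 and the transcription factor Etv5 by 1.04. The surfactant protein genes Sftpb and Sftpd had higher means in WT HO (12.40 and 9.43) than in WT RA (12.12 and 9.15). Neither was called. None of the 9 passed in SK HO against SK RA. Of 6 alveolar type 1 genes, 3 rose in WT HO, among them Hopx by 1.34, and Rtkn2 fell by 1.69. No basal cell gene of 7 and no neuroendocrine gene of 5 passed in either genotype, and of 9 airway cartilage genes only Sox9 did, in SK HO. Over all transcripts 8.58% rose and 6.35% fell in WT HO, so no call among so few genes is near that share.

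Regulators known to act on these genes were measured on the same arrays. Of 11 lung epithelial transcription factors, Cebpd, a C/EBP factor that activates Scgb1a1 and P450 promoters in club cells, rose by 2.72 in WT HO and differed by 0.35 in SK HO. It read 5.25, 5.14 and 5.75 in WT RA, 8.24, 8.47 and 7.57 in WT HO, 6.75, 6.62 and 6.42 in SK RA, and 6.70, 7.61 and 6.54 in SK HO. Nkx2-1, which drives secretoglobin genes, fell by 0.75 in WT HO and differed by 0.19 in SK HO. Elf3 (1.11) and Sox2 (0.77) also rose in WT HO, and Foxa2 (0.75) and Klf5 (0.65) rose in SK HO.

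Of 18 genes of IL-17, IL-22 and IL-6 family signalling, which induces Reg3g and other airway antimicrobial proteins, 10 rose in WT HO and 2 in SK HO. The receptor Osmr rose by 2.00 and 1.00, the cytokine Lif by 2.00 and 1.13, and Il6 by 2.48 in WT HO. The ligands Il17a, Il17f and Il22 had means of 3.99, 3.90 and 3.99 in WT RA and 4.13, 4.65 and 3.80 in WT HO. The receptors Il22ra1 and Il17ra had means of 4.72 and 7.05 in WT RA and 4.80 and 7.99 in WT HO. Of 11 genes of type 2 and EGF receptor signalling, which induces Muc5ac, 4 rose and 2 fell in WT HO. The EGF receptor ligand Hbegf rose by 1.92 and the interleukin-4 receptor Il4ra by 1.51, while Foxm1, a regulator of goblet cell differentiation and of the cell cycle, fell by 2.10. Postn was also lower in WT HO (mean 9.56) than in WT RA (11.11). The ligands Il4 and Il13 had means of 3.60 and 4.75 in WT RA and 3.31 and 4.91 in WT HO. None of these 11 passed in SK HO against SK RA, and Muc5ac and Reg3g passed in neither genotype.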

How the data were processed

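Arrays were 1 per mouse, 3 mice in each of 4 groups named by the submitters' labels. The authors made the deposited log2 values from the scanned MoGene 2.0 ST arrays in Partek Genomics Suite by robust multi-array averaging (background correction, quantile normalization across arrays, summarization over probes). Quantile normalization gives all arrays nearly the same distribution, so a change shared by most genes would not be seen. No source used here gives the probes' genome build. Of 41345 transcripts, 23521 had 1 gene symbol in the platform table, 1820 several and 16004 were not listed.

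A linear model with 4 group means was fitted to all 12 arrays in limma 3.58.1 (R 4.3.3) with eBayes (prior degrees of freedom 3.25). P-values are two-sided, adjusted by Benjamini-Hochberg over the whole table, with 0.05 as the threshold. The fit was tested on simulated data with independent normal noise and changes in WT HO alone. Those data held no outlying array and no imbalance of sex, so that test does not bear on calls that turn on them. The methods' two-way ANOVA has the same terms. The number of arrays limits the precision.

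The members and gene lists were chosen with earlier results of these data known. Named from each list were the genes with the smallest adjusted p (up to 4 in each direction), defining markers, and the genes most correlated with a member.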

Additional observations from a re-analysis of the deposited data

Results flagged for a closer look

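The oxygen response of the genes below differed between genotypes in limma's interaction test, given as the SK response minus the WT response on the log2 scale. Among the 9 genes these were Cyp2f2 (-1.52, adjusted p 0.00541) and Bpifa1 (-4.21, adjusted p 0.0412).

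Among other club cell genes and relatives of the 9, the difference was -3.49 for Cyp2b10, -2.60 for Cyp4b1, -2.27 for Gsta3, -1.65 for Aldh1a1, -2.73 for Scgb1c1, -2.99 for Fmo2 and -1.11 for Bpifa2. It was -0.95 for the ciliated cell gene Sntn and 2.11 for the alveolar type 1 gene Rtkn2. Of the regulators, Cebpd differed by -2.36, Nkx2-1 by 0.95, Il6st by -0.99, Hbegf by -1.61 and Foxm1 by 2.07. All 16 had 3 mice in each group, and the adjusted p were at most 0.0438. The mean level of Bpifa2 was below the receptor yardstick in all groups but WT HO.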

How the results depend on the processing

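Counts of the 9 genes called moved with the fit. In WT HO against WT RA, 3 became 2 with ordinary variances or median centring (Aldh1a7 lost) and with further quantile normalization, the mean over all transcripts of a symbol, or without the arrays highest in adipocyte genes (Cyp2f2 lost). It became 5 with only the arrays compared and 6 without the arrays with the highest medians (SK RA 1 and SK HO 1, a choice made after seeing the data), and ran from 1 to 5 on leaving out an array. In SK HO against SK RA the single call, Cyp2f2, became 0 with ordinary variances, median centring, only the arrays compared, the mean over all transcripts of a symbol, Y-linked genes as a covariate, or without either pair of arrays (those highest in adipocyte genes or in median), and ran from 0 to 1. The genotype difference went from 2 to 1 with ordinary variances and without either pair, and ran from 1 to 2. SK HO against WT HO went from 2 to 1 with ordinary variances and to 3 with 1 transcript per gene or without the arrays of highest median. It stayed at 2 with only the arrays compared, but for Scgb3a1 and Muc5b in place of Cyp2f2 and Bpifa1, and without the arrays highest in adipocyte genes, for Scgb3a1 and Cyp2f2. On leaving out an array it ran from 1 to 4. The oxygen effect over genotypes went from 0 to 2 with a filter on low transcripts or 1 transcript per gene, to 1 with the Y-linked covariate, to 1 with the replicate block and to 3 without the arrays of highest median, and ran from 0 to 1. SK RA against WT RA and the knockout effect ran from 0 to 0. Causes were not tested. Of 1485 values under alternatives, 54 lost a call, 30 gained one and no called value turned in sign.

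No source used here ties a replicate number to a shared litter or batch. Same-numbered arrays of different groups had deviations that correlated from -0.06 to 0.40 (mean 0.12, 18 pairs), others from -0.29 to 0.22 (mean -0.06, 36 pairs), and 7 of 12 arrays correlated best with their own number. The 3 same-numbered pairs of SK RA and SK HO were at 0.40, 0.19 and 0.21. The unlike pairs SK RA 2 with SK HO 3 (0.14) and SK RA 3 with SK HO 2 (0.15) were close to the lower of these. Whether the arrays were paired was not tested. With the replicate block Cyp2f2 kept its call in SK HO against SK RA (adjusted p 0.0256). Beyond the oxygen effect over genotypes, the block changed no count of calls. The filter kept 26867 transcripts and all 9 genes.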
